A study of Mus musculus with 12 samples.

Results

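The 10 genes described here encode receptors, a regulator and cytotoxic granule proteins of natural killer (NK) cells. They were taken by name from the 23329 rows of each deposited gene count table, and all 10 had a row. Klrd1, Klrc1, Klrk1, Klrb1c and Ncr1 encode receptors, Eomes a transcription factor, and Nkg7, Prf1, Gzma and Gzmb proteins of the cytotoxic granule. RNA came from spleen or duodenum of wild type C57BL/6J mice, an inbred laboratory strain, aged 2 months. They had been given AC H6 or an isotype control at 100 ul of a 1 mg/ml solution per mouse, 24 h earlier. AC H6 is an antibody that activates the lymphotoxin beta receptor (LTbR), which is found on stromal, epithelial and myeloid cells. The 4 groups, spleen isotype, spleen AC H6, duodenum isotype and duodenum AC H6, held 3 libraries each, and all 12 libraries shared strain and age. Whether the 3 libraries of a group are from different animals is not in the labels, so the p-values reflect only the spread among them, which may be technical.

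NK cells are innate lymphocytes that kill infected or transformed cells without a rearranged antigen receptor. Inhibitory receptors such as the CD94-NKG2A pair read MHC class I on a target cell, while activating receptors such as NKG2D and NKp46 read stress or microbial ligands. An activated cell releases perforin, which opens a path through the target membrane, and granzymes, serine proteases that start cell death. In the intestinal epithelium, granzymes A and B are also made by intraepithelial T lymphocytes, so these genes do not mark NK cells alone there. A sample of whole tissue cannot tell fewer cells of a type from less RNA per cell.

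Klrd1 encodes CD94, Klrc1 its partner NKG2A, Klrk1 encodes NKG2D, Klrb1c the NK1.1 antigen of C57BL/6 mice, and Ncr1 encodes NKp46. Eomes is a T-box factor of mature NK cells. Nkg7 is a membrane protein of the granule needed for its release, Prf1 is perforin, Gzma granzyme A and Gzmb granzyme B. On GRCm38 (mm10), 4 members lie on chromosome 6 in the NK gene complex, within 900 kb: Klrb1c at 128778485 to 128789215, Klrd1 at 129591782 to 129598775, Klrk1 at 129610323 to 129623864 and Klrc1 at 129666015 to 129678973. Ncr1 (4337724 to 4345164) and Nkg7 (43437073 to 43438249) are on chromosome 7, Eomes (118478212 to 118486132) on chromosome 9, Prf1 (61297833 to 61304680) on chromosome 10, Gzma (113093825 to 113100981) on chromosome 13 and Gzmb (56258838 to 56262260) on chromosome 14. Counts are taken here to sum over a gene's exons, although the way they were made is not stated. Of the 50-base words in the longest transcript, 40.3% in Klrc1 also occur in Klrc2 or Klrc3. For Klrb1c the share is 18.1%, with Klrb1a, Klrb1b, the pseudogene Klrb1-ps1 and the gene model Gm44511, whose exons overlap it by 413 bases. Values of Klrc1 and Klrb1c are therefore uncertain. Eomes shares 118 exon bases with the antisense model Gm33460, whose reads cannot be told from its own without strand. It also shares 0.285% of its words with other genes, and the other 7 members share none.

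RefSeq promoter windows (GRCm38.p6) were matched for 9 of the 10 members. The 250 bases before the start site were searched on both strands for TGTGGTT (Runx factors), GGTGTGA (T-box factors), TGANTCA (AP-1) and TGACGTCA (CRE), of which no 2 matches overlapped. TGTGGTT occurred in 4 of the 9 windows (Klrk1, Ncr1, Gzma and Gzmb) and in 4.46% of the 27025 mouse windows of that length. These 4 windows are shown because they carry the same letters although 2 of the genes, as described below, were higher in duodenum and 2 were higher in spleen. Capitals mark TGTGGTT, its reverse complement AACCACA in Gzma, and TGAGTCA, the AP-1 match in Gzmb. Each window is written 5′ to 3′ along its gene.
Klrk1, chr6:129623865-129624114, minus strand: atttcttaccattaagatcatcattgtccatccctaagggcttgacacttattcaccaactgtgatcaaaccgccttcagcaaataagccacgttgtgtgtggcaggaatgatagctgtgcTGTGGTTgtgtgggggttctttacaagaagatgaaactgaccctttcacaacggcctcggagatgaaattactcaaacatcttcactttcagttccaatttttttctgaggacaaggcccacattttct
Ncr1, chr7:4337465-4337714, plus strand: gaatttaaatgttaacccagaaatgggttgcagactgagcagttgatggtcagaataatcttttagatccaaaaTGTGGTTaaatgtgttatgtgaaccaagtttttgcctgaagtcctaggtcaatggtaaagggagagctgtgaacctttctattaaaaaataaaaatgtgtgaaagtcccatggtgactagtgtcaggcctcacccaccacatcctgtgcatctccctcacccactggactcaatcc
Gzma, chr13:113100982-113101231, minus strand: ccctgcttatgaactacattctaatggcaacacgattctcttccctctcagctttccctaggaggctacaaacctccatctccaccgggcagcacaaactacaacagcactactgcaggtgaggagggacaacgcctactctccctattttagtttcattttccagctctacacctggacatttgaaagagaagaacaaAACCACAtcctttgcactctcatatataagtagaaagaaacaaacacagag
Gzmb, chr14:56262335-56262584, minus strand: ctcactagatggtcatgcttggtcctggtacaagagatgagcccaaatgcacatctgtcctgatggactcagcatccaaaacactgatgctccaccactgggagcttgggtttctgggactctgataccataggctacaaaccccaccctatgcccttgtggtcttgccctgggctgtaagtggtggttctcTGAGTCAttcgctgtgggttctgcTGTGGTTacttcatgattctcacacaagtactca

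The Runx letters began 129 bases before the start site in Klrk1, 176 in Ncr1, 51 in Gzma and 34 in Gzmb. The AP-1 letters began 58 bases before the start site of Gzmb, the only 1 of the 9 windows with them (6.87% of all windows). Nkg7 held GGTGTGA 13 bases before its start site (3.31% of all windows), and TGACGTCA (1.62%) was in none of the 9. A match is a run of letters, and binding was not measured here.

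Total counts per library ran from 13874091 to 45847467. The library with the fewest, spleen isotype 1, held 3118 counts over the 10 members, and counts over the members ran from 1595 to 7856. Markers of each labelled tissue stood in the libraries of that tissue: 10 duodenal epithelium genes summed to 30110 to 31820 CPM in duodenum isotype, to 26310 to 27990 in duodenum AC H6 and to 39.3 or less in spleen. CPM are counts relative to library size, scaled by the trimmed mean of M values (TMM) over all 12 libraries. The extraction protocol speaks of brain. The 8 brain genes on the list summed to 75.3 to 88.3 CPM in spleen and 47.7 to 61.0 CPM in duodenum, mostly Mbp, the myelin basic protein gene; 6 or 7 of the 8 were above 0 in each group and Neurod6, a neuronal factor, was at 0 in every library. Haemoglobin genes held 7.59% to 19.0% of the spleen isotype counts and 15.7% to 28.3% of the spleen AC H6 counts. Duodenum libraries stood apart in other transcripts: the ribosomal precursor Rn45s held 7.56% of isotype 1, and the pancreatic amylase 2 genes held 2.13% of isotype 2 and 8.64% of AC H6 3. Below, values are CPM as mean ± SD (n = 3 libraries), differences are log2 ± standard error, and "called" means that edgeR's quasi-likelihood test gave a p under 0.05 after Benjamini-Hochberg adjustment over every gene tested.

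The first comparison set duodenum against spleen under the isotype antibody. Of the 10 members 8 were lower in duodenum and 2, both granzymes, were higher. Among all 16029 genes tested 43.8% were called lower and 42.2% higher, so a call alone says little here, and the sizes carry the description. Prf1, Ncr1, Klrc1 and Eomes passed the filter on low counts in this comparison only through their spleen libraries. For them a lower call was close to fixed in advance. Gzmb was 24.3, 22.7 and 25.7 CPM in the duodenum libraries and 4.13, 3.69 and 4.12 in the spleen libraries. That is a 6.09-fold difference of the means (log2 2.59 ± 0.09, edgeR adjusted p = 2.91e-08). Gzma, the more abundant granzyme in both tissues, was 48.5, 52.4 and 53.2 CPM in duodenum against 28.7, 23.5 and 26.2 in spleen (log2 0.95 ± 0.09, edgeR adjusted p = 1.06e-05). In both genes every duodenum library lay above every spleen library.

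Perforin, which works with the granzymes, went the other way. Prf1 was 0.356, 0.313 and 0.353 CPM in duodenum, from 7, 9 and 9 counts, against 13.6, 12.01 and 13.8 CPM in spleen. Its log2 difference was -5.28 ± 0.15 (edgeR adjusted p = 7.09e-09), a call that the filter, passed only through spleen, made close to fixed in advance. Within a library there were 71.2 ± 2.53 counts of Gzmb for each count of Prf1 in duodenum isotype and 0.303 ± 0.004 in spleen isotype (n = 3 each). Nkg7 lay at 3.39 ± 0.09 CPM in duodenum and 24.0 ± 0.15 in spleen (log2 -2.85 ± 0.07), the smallest shortfall among the 8.

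Of the receptors, Klrd1 differed least: 2.64, 2.26 and 2.59 CPM in duodenum against 25.5, 24.1 and 27.5 in spleen (log2 -3.39 ± 0.10). Klrb1c followed at -4.57 ± 0.23 and Klrk1 at -5.16 ± 0.17. Ncr1 had 4, 6 and 3 counts in the duodenum isotype libraries, and its log2 difference was -5.85 ± 0.18. Klrc1, the partner of Klrd1, had 0, 3 and 3 counts there and a log2 difference of -5.93 ± 0.35. Eomes was the lowest member in duodenum, with 0, 3 and 1 counts against 220, 546 and 336 in spleen (log2 -7.74 ± 0.29). From counts summed over each group, the CPM ratio of Eomes was 0.00438, with a 95% exact counting interval from 0.00119 to 0.0112. For Klrc1, on 6 counts, it was 0.0161 (0.00589 to 0.0354). These intervals cover counting error only. For each count of Ncr1 there were 15.3 ± 5.92 counts of Klrd1 in duodenum isotype and 2.51 ± 0.19 in spleen isotype. The receptors thus differed in unequal degree, and the 2 genes of the CD94-NKG2A pair stood apart from each other in duodenum.

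Levels were ranked between genes as CPM per kilobase of exon, since longer transcripts gather more reads. In spleen isotype Nkg7 (26.2 ± 0.16 CPM per kb) and Gzma (25.96 ± 2.54) led and overlapped. Klrd1 followed at 20.1 ± 1.34, apart from its neighbours on both sides. Ncr1 (6.65 ± 0.36), Klrb1c (5.99 ± 0.67) and Prf1 (5.09 ± 0.38) came next, each overlapping its neighbour, and then Klrk1 (4.19 ± 0.44), which overlapped neither neighbour. Eomes (2.96 ± 0.19), Gzmb and Klrc1 (2.58 ± 0.21) closed the order and overlapped as neighbours. Gzmb thus ranked 9 of 10 in spleen isotype, at 2.77 ± 0.18 CPM per kb. In duodenum isotype Gzma (51.1 ± 2.53 CPM per kb) was first and Gzmb (16.9 ± 1.02) second, followed by Nkg7 (3.70 ± 0.10), Klrd1 (1.95 ± 0.16) and Klrb1c (0.264 ± 0.105), none overlapping the next. Prf1 (0.132 ± 0.009), Klrk1 (0.118 ± 0.030) and Ncr1 (0.115 ± 0.033) overlapped as neighbours. Klrc1 (0.0373 ± 0.0325) and Eomes (0.0115 ± 0.0127) were last and overlapped. The order depends on the length used: Klrk1 has 7183 bases over all exons and 3197 in its longest transcript. By the longest transcript, an alternative chosen once the values were known, Klrk1 was 4 of 10 in spleen isotype (9.41 ± 0.99 CPM per kb) and Klrd1 1 of 10 (27.97 ± 1.87), while Gzmb stayed at 9 there and at 2 in duodenum isotype.

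Gzma and Gzmb held nearly all counts of the 10 granzyme genes. Gzma made up 82.6% ± 1.70 of granzyme counts per library in spleen isotype and Gzmb 12.6% ± 0.37, while in duodenum isotype the shares were 67.6% ± 1.60 and 31.9% ± 1.62 (n = 3). Of the remaining granzymes, Gzmm was detected at 1.05 ± 0.40 CPM in spleen isotype and 0.279 ± 0.060 in duodenum isotype. Gzmd, Gzmg and Gzmn had 0 counts in every group, which allows up to 3 counts per group.

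The second comparison set AC H6 against isotype in spleen. Klrd1 fell and Gzmb rose, and the other 8 members were not called. Among all 15270 genes tested 2.06% were called higher and 1.92% lower. Klrd1 went from 25.5, 24.1 and 27.5 CPM with isotype to 16.7, 17.6 and 17.1 with AC H6, and every AC H6 library lay below every isotype library. The mean with AC H6 was 0.667 of the isotype mean, a log2 change of -0.58 ± 0.07 (edgeR adjusted p = 0.0137). Gzmb went from 4.13, 3.69 and 4.12 CPM to 6.22, 5.97 and 6.71, again without overlap and in the opposite direction. Its log2 change was 0.67 ± 0.10, 1.58-fold (edgeR adjusted p = 0.0251).

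**Figure D1:**
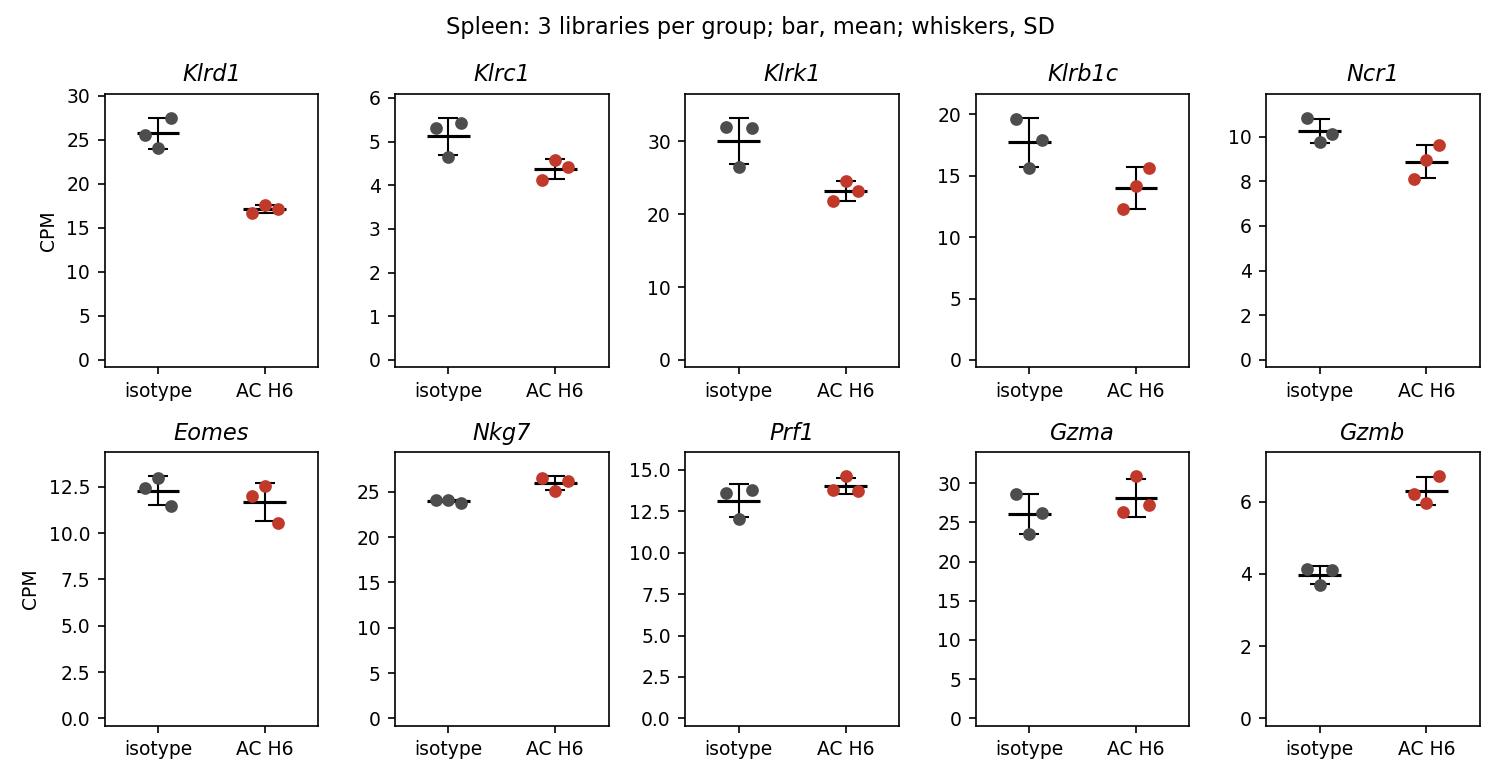
CPM of each of the 10 members in the 6 spleen libraries (points), with the mean (bar) and SD (whiskers) of 3 libraries per group; each vertical axis starts at 0. Klrd1 fell from 25.7 to 17.1 CPM and Gzmb rose from 3.98 to 6.30 CPM on average, while the other 8 members were not called.

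Both calls depended on single libraries. The Klrd1 call was lost without isotype 1 (edgeR adjusted p = 0.0831), AC H6 1 (0.0507) or AC H6 3 (0.081), with log2 changes between -0.58 and -0.56. The Gzmb call was lost without any 1 library other than AC H6 2, with adjusted p from 0.0731 to 0.104 and log2 changes from 0.61 to 0.70.

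The other receptor genes had lower means with AC H6, none of them called. Klrk1 was 32.0, 26.5 and 31.8 CPM with isotype and 21.8, 24.5 and 23.2 with AC H6, without overlap (log2 -0.37 ± 0.09, edgeR adjusted p = 0.0651, and 0.0181 by DESeq2). Ncr1 was 10.9, 9.77 and 10.1 against 8.10, 8.94 and 9.61 CPM, also without overlap (log2 -0.20 ± 0.09, edgeR adjusted p = 0.194). Klrc1 was 5.31, 4.64 and 5.42 against 4.13, 4.57 and 4.42 CPM and its groups lay close together without overlap (log2 -0.22 ± 0.11, edgeR adjusted p = 0.23). Klrb1c was 17.7 ± 1.99 against 14.03 ± 1.70 CPM and its groups overlapped narrowly (log2 -0.33 ± 0.12, edgeR adjusted p = 0.128). Eomes overlapped, at 12.3 ± 0.78 and 11.7 ± 1.02 CPM (log2 -0.07 ± 0.09).

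The other granule genes had slightly higher means. Nkg7 was 24.1, 24.1 and 23.8 CPM with isotype and 26.6, 25.1 and 26.2 with AC H6, without overlap (log2 0.12 ± 0.05, edgeR adjusted p = 0.202). Prf1 was 13.1 ± 0.99 and 14.04 ± 0.49 CPM (log2 0.10 ± 0.08), and Gzma 26.1 ± 2.55 and 28.1 ± 2.43 CPM (log2 0.11 ± 0.09), and both overlapped. The median log2 change of the 10 members was -0.13, beside -0.0009 over all genes tested.

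Some T cell and B cell genes fell in spleen as Klrd1 did. The 12 T cell markers summed to 621 to 725 CPM with isotype and 485 to 535 with AC H6. By edgeR 5 of 12 fell (10 called by DESeq2), beside 1.92% of all genes called lower by edgeR. Among them were Cd3e (log2 -0.43 ± 0.06), which encodes CD3 epsilon, Tcf7, a T cell transcription factor (-0.46 ± 0.07), and Cd28, a costimulatory receptor (-0.47 ± 0.08). No T cell marker was at 0. The 10 B cell markers summed to 3463 to 3773 CPM and 2762 to 3201 CPM. By edgeR 2 of 10 fell (8 called by DESeq2), beside the same 1.92%, among them Fcrla (-0.40 ± 0.08), an intracellular Fc receptor-like protein. Red cell precursor markers, at 49660 to 144400 and 114500 to 255300 CPM, overlapped. The 11 neutrophil markers, at 534 to 818 CPM with isotype and 1586 to 2265 with AC H6, were higher in every AC H6 library. With a red cell precursor score as a covariate Klrd1 was still called (edgeR adjusted p = 0.0174) and Gzmb was not (0.0804). With a T cell score as a covariate neither was called, at log2 -0.44 for Klrd1 (0.911) and 0.60 for Gzmb (0.934), and no gene of all those tested was. With the replicate number as a block neither was called either, at -0.58 (0.0865) and 0.67 (0.104). The part of these cell types in the 2 changes was not tested.

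The third comparison set AC H6 against isotype in duodenum. Prf1 rose, and 6 members were not called. Ncr1, Klrc1 and Eomes had too few counts to pass the filter and were not tested. Among all 15667 genes tested 18.5% were called higher and 16.1% lower, so 1 call among 7 tested members is no more frequent than in genes at large. Prf1 went from 7, 9 and 9 counts (0.356, 0.313 and 0.353 CPM) with isotype to 16, 23 and 29 counts (0.480, 0.832 and 0.787 CPM) with AC H6. Every AC H6 library was higher, the mean was 2.05-fold that of isotype, and the log2 change was 1.05 ± 0.31 (edgeR adjusted p = 0.0289). Prf1 passed the filter on low counts only through its AC H6 libraries, where it was higher. Its entry to the test was therefore not independent of the rise. The call was lost without any 1 library other than AC H6 1 (adjusted p from 0.0639 to 0.0891) and by DESeq2 (0.113). It was kept without the amylase 2, Rn45s, haemoglobin and Lars2 genes (0.0284) and with a score of pancreatic acinar genes as a covariate (log2 0.97, adjusted p = 0.045), genes that summed to 15.1 to 38030 CPM over the duodenum libraries.

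**Figure D2:**
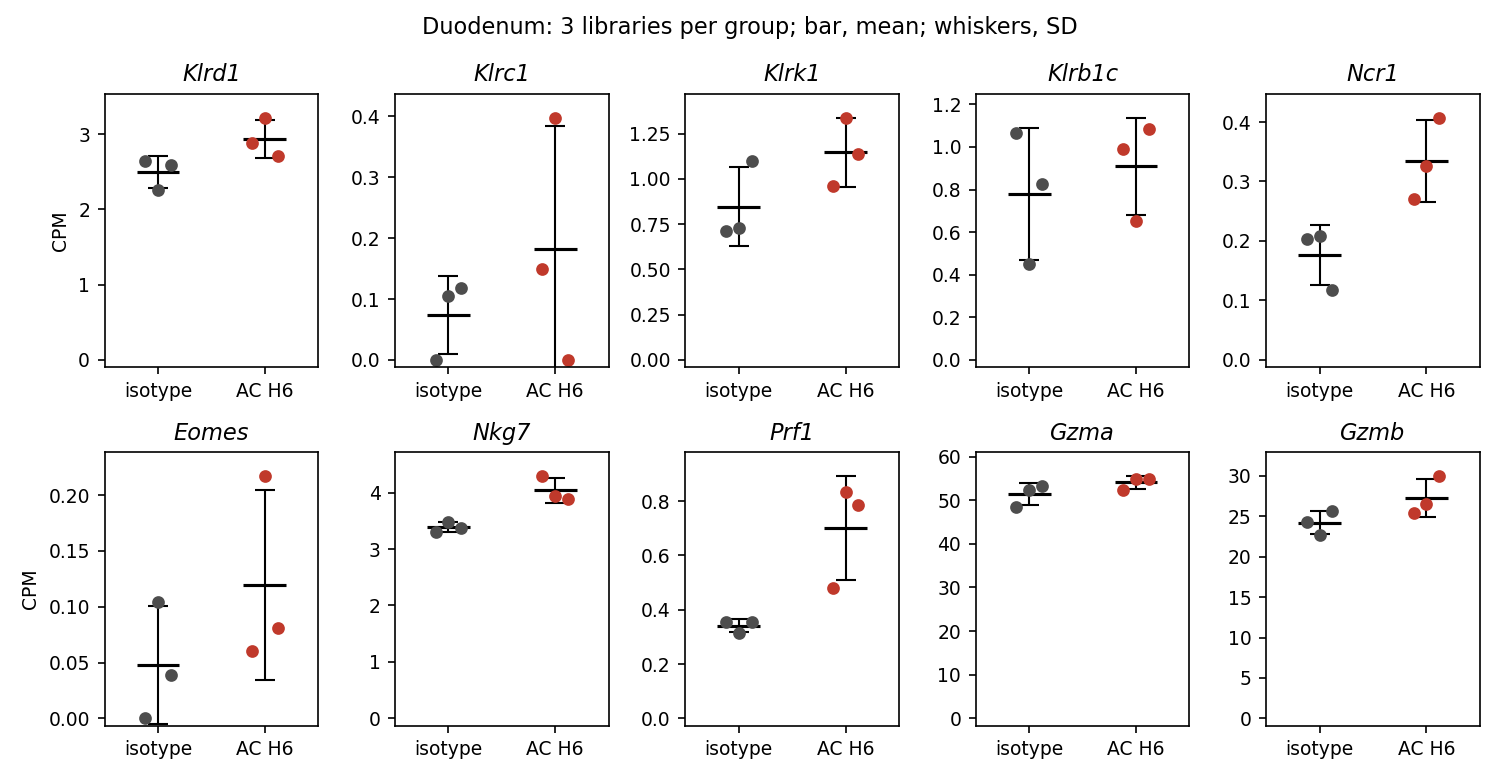
CPM of each of the 10 members in the 6 duodenum libraries (points), with the mean (bar) and SD (whiskers) of 3 libraries per group; each vertical axis starts at 0. Prf1 rose from 0.341 to 0.700 CPM on average; Gzma and Gzmb stood far above the other members on their own axes in both groups.

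Neither granzyme was called in duodenum. Gzmb was 24.3, 22.7 and 25.7 CPM with isotype and 25.5, 26.5 and 30.0 with AC H6, with overlapping groups (log2 0.19 ± 0.08, edgeR adjusted p = 0.0986). Gzma was 51.4 ± 2.54 and 54.1 ± 1.42 CPM, also overlapping (log2 0.09 ± 0.05, edgeR adjusted p = 0.195). Nkg7 was 3.30, 3.48 and 3.38 against 4.29, 3.94 and 3.88 CPM, and the groups did not overlap, but the change was not called (log2 0.27 ± 0.12, edgeR adjusted p = 0.105).

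The receptor genes in duodenum rested on few counts. Klrd1 was 2.64, 2.26 and 2.59 CPM with isotype and 2.88, 3.22 and 2.71 with AC H6, without overlap (log2 0.25 ± 0.15, edgeR adjusted p = 0.219). Klrk1, from 14, 21 and 28 counts against 32, 37 and 42, gave a log2 change of 0.44 ± 0.25 with overlapping CPM. Klrb1c gave 0.30 ± 0.33 from 55 counts over the isotype and 91 over the AC H6 libraries. Ncr1 had 4, 6 and 3 counts with isotype and 9, 9 and 15 with AC H6, and its CPM did not overlap. Its CPM ratio was 1.92, with a counting interval from 0.983 to 3.97. Klrc1, with 6 counts against 16 (ratio 2.02, interval 0.749 to 6.29), and Eomes, with 4 against 11 (ratio 2.08, interval 0.616 to 8.95), had intervals that include 1, as that of Ncr1 did. Differences in these 3 genes were not detectable at this depth. No member was called lower by edgeR, with 0 at an unadjusted p under 0.05, and 0 by DESeq2 and 0 by limma-voom. The median log2 change of the 7 tested members was 0.27, beside 0.01 over all genes tested.

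T cell markers summed to 45.4 to 47.7 CPM in duodenum isotype and 53.2 to 57.4 with AC H6. Of 10 tested 3 rose, beside 18.5% of all genes: Cd6 (log2 1.33 ± 0.23), a T cell surface receptor, Cd4 (0.51 ± 0.09), the coreceptor of helper T cells, and Cd3e (0.33 ± 0.11). No T cell marker was at 0. Markers of intraepithelial lymphocytes and innate lymphoid cells summed to 126 to 153 and 131 to 144 CPM, and Il22 was at 0 with isotype. The markers of duodenal epithelium moved the other way, with 8 of 10 lower and 1 higher, beside 16.1% and 18.5% of all genes. Among the lower ones were Sis, sucrase-isomaltase (-0.66 ± 0.09), and Fabp1, a fatty acid binding protein (-0.61 ± 0.08). With a T cell score as a covariate the log2 change of Prf1 was -0.02 (edgeR adjusted p = 0.999), and 2 genes of all those tested were called. The part of these cell types in the Prf1 change was not tested.

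The fourth comparison tested the difference between the AC H6 changes of the 2 tissues directly, as an interaction of tissue and treatment over all 12 libraries. The change in duodenum was above that in spleen for Klrd1, Klrk1 and Prf1, and below it for Gzmb. The other 6 members were not called. Klrc1, Ncr1 and Eomes, which had too few counts in duodenum for a test there, entered this fit only through their spleen counts. Among all 16655 genes tested 10.9% were called higher and 9.13% lower. For Klrd1 the difference of the log2 changes was 0.81 ± 0.13 (edgeR adjusted p = 0.00151), and for Gzmb it was -0.50 ± 0.12 (edgeR adjusted p = 0.015). Both stayed called whichever 1 of the 12 libraries was left out. For Klrk1 it was 0.79 ± 0.23 (edgeR adjusted p = 0.033) and for Prf1 0.93 ± 0.34 (edgeR adjusted p = 0.0341).

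**Figure D3:**
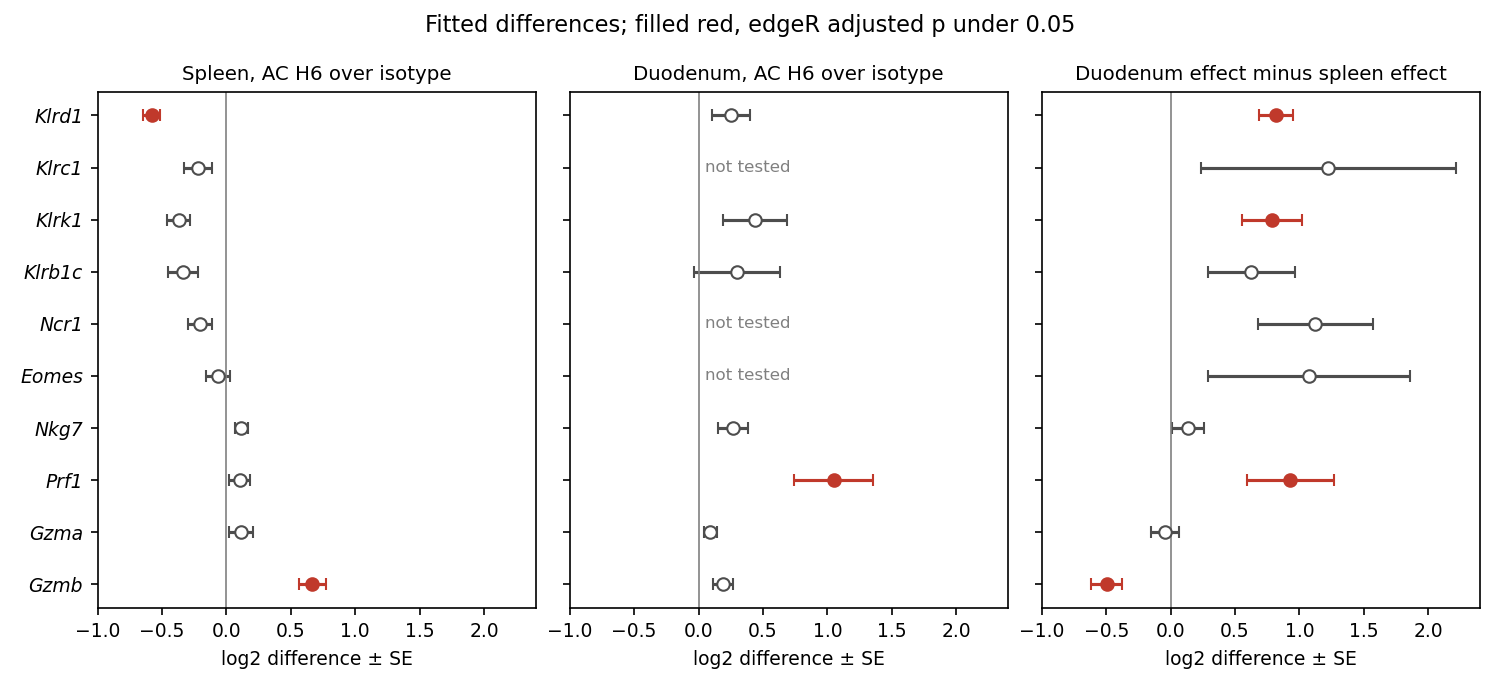
Fitted log2 differences (points) ± SE (whiskers) of the 10 members: AC H6 over isotype in spleen, the same in duodenum, and the duodenum change minus the spleen change; red filled points have an edgeR adjusted p under 0.05. In the right panel Klrd1 (0.81), Klrk1 (0.79) and Prf1 (0.93) lie above 0 and Gzmb (-0.50) below.

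The Klrk1 and Prf1 calls depended on single libraries. The Klrk1 call was lost without duodenum isotype 1 or 2, duodenum AC H6 2 or 3, spleen isotype 1 or 3, or spleen AC H6 1 or 3, with adjusted p from 0.0532 to 0.0995. The Prf1 call was lost without any duodenum library other than AC H6 1, and without spleen isotype 3, AC H6 1 or AC H6 3, with adjusted p from 0.0521 to 0.117. Neither was called by limma-voom (0.131 and 0.109), and Prf1 was not called by DESeq2 (0.0636). Ncr1 had the next smallest p, with a difference of 1.12 ± 0.45 (edgeR adjusted p = 0.0575, and 0.0472 with a stricter filter on low counts that it passes through spleen). It rests on 13 and 33 counts in duodenum and is not read as a result. The differences were 0.63 ± 0.34 for Klrb1c, 1.22 ± 0.99 for Klrc1, 1.08 ± 0.78 for Eomes, 0.13 ± 0.12 for Nkg7 and -0.04 ± 0.11 for Gzma, none of them called. Of the T cell markers 9 of 12 were called higher in this comparison, beside 10.9% of all genes. Cd3e differed by 0.74 ± 0.09.

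Ratios of 2 genes within a library do not depend on library scaling. They were chosen with the values known and are given as descriptions. In spleen the counts of Gzmb per count of Klrd1 were 0.162, 0.153 and 0.150 with isotype and 0.373, 0.339 and 0.391 with AC H6. In duodenum they were 9.19, 10.1 and 9.91 with isotype and 8.84, 8.23 and 11.04 with AC H6, with overlap. Gzmb was also higher relative to the other granule genes in spleen: per count of Prf1 from 0.303 ± 0.004 to 0.449 ± 0.040, and per count of Gzma from 0.153 ± 0.008 to 0.225 ± 0.028. Its share of all granzyme counts in spleen was 12.2%, 12.8% and 12.8% with isotype and 18.1%, 15.4% and 19.1% with AC H6. Against Cd8a, a coreceptor of cytotoxic T cells, the ratio went from 0.0463 ± 0.0031 to 0.0868 ± 0.0109 (n = 3 each). No isotype library overlapped an AC H6 library in these spleen ratios.

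**Figure D4:**
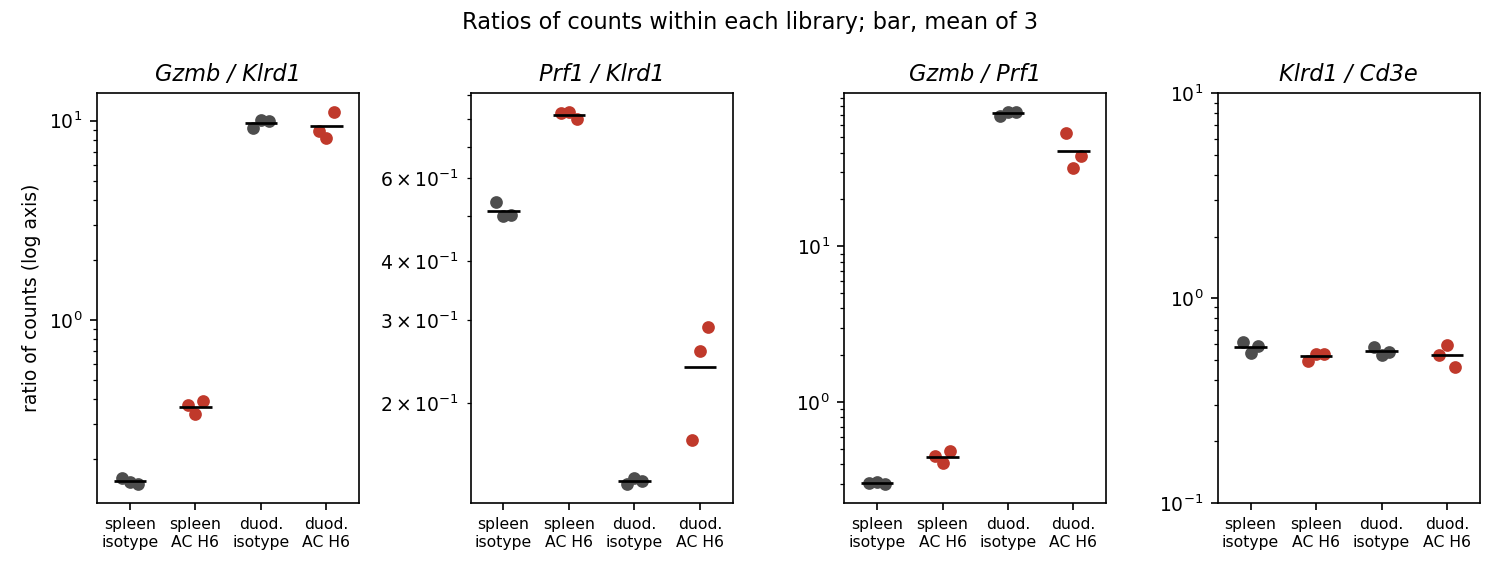
Ratios of the counts of 2 genes within each library (points; bar, mean of 3) on log axes that differ between panels, for the 4 groups. Gzmb per Klrd1 moved from 0.155 to 0.368 in spleen and lay at 9.72 and 9.37 in duodenum, while Klrd1 per Cd3e lay between 0.459 and 0.613 in all 12 libraries.

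Perforin per count of Klrd1 was higher with AC H6 in both tissues. In spleen it was 0.533, 0.499 and 0.502 with isotype and 0.826, 0.829 and 0.802 with AC H6. There Prf1 itself was not called (log2 0.10 ± 0.08) and Klrd1 fell (-0.58 ± 0.07), so the ratio moved mostly through its denominator. In duodenum it was 0.135, 0.138 and 0.136 against 0.167, 0.258 and 0.290, from 25 and 68 counts of Prf1 over the groups. Klrd1 per count of Cd3e was 0.578 ± 0.037 in spleen isotype and 0.522 ± 0.023 in spleen AC H6, and 0.551 ± 0.025 and 0.526 ± 0.067 in duodenum. That ratio was of similar size in both tissues, although the Klrd1 level in duodenum isotype was 0.0972 of that in spleen isotype. Cd3e (log2 -3.32 ± 0.09) and Cd4 (-3.37 ± 0.08) differed between the tissues about as Klrd1 did. Over the 12 T cell markers the differences ran from -2.66 (Cd8a) to -7.04 (Lef1), with a median of -4.605. The ratio therefore describes Cd3e and not T cell markers as a set. Klrd1 per count of Ncr1 in spleen went from 2.51 ± 0.19 to 1.94 ± 0.14.

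Other genes of NK cell function were described by lists. Of 28 other NK receptors, all tested in spleen, 1 rose by edgeR, beside 2.06% of all genes. It was Fcgr3, the low-affinity Fc receptor CD16 that also stands on myeloid cells (log2 0.55 ± 0.05, edgeR adjusted p = 0.00822). A further 21 of the 28 had log2 changes below 0 without a call by edgeR, and the list median was -0.19. DESeq2 called 7 of the 28, and 10 had an unadjusted edgeR p under 0.05. In duodenum 14 of the 28 passed the filter and 3 rose, namely Klra2 (0.75 ± 0.13) and Klra17 (0.75 ± 0.22), lectin-like receptors of the Ly49 family, and Fcgr3 (0.51 ± 0.11). That share is near the 18.5% of all genes called higher in duodenum. Klra2 is also known from myeloid cells and Klra17 from plasmacytoid dendritic cells, whose markers summed to 231 to 273 CPM in duodenum isotype and 368 to 492 with AC H6. Of these 8 markers 4 were called higher, beside 18.5% of all genes. They were Spib (3.52 ± 0.11), Bst2 (1.43 ± 0.07), Siglech (0.98 ± 0.18) and Ly6d (0.80 ± 0.12). Whole tissue does not show which cells carried these rises. Tcf4 (0.08 ± 0.05), Irf8 (-0.002 ± 0.054), Ccr9 and Klk1 were not called. The part of these cells in the Klra17 change was not tested. Klra genes share reads with near copies and are uncertain. In the interaction 2 of 28 were called higher, below the 10.9% of all genes: Slamf7 (0.38 ± 0.12), a receptor of the SLAM family, and Klre1, a lectin-like receptor that entered this fit only through spleen and had 7 and 36 counts over the duodenum isotype and AC H6 libraries.

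Adaptors carry the signal of activating receptors. Of 14 in spleen 2 rose, beside 2.06% of all genes. They were Fcer1g (0.38 ± 0.07), the gamma chain that pairs with NKp46 and CD16, and Tyrobp (0.30 ± 0.06), which encodes DAP12. In duodenum 6 of 12 rose, beside 18.5% of all genes, the smallest p being those of Syk (0.78 ± 0.06), a kinase below these adaptors, Tyrobp (0.73 ± 0.07), Fcer1g (0.71 ± 0.08) and Lck (0.58 ± 0.11), a kinase of T and NK cells. Myeloid cells express Tyrobp, Fcer1g, Syk and Fcgr3 as well. Monocyte markers summed to 729 to 857 CPM in spleen isotype and 983 to 1081 with AC H6, and to 213 to 235 and 231 to 264 CPM in duodenum. By edgeR 5 of the 8 monocyte markers were called higher in spleen and 0 lower, beside 2.06% and 1.92% of all genes. In duodenum 6 of 8 were called higher and 1 lower, beside 18.5% and 16.1% of all genes. Chi3l3 (3.875 ± 0.242) and Ccr2 (2.77 ± 0.13) were among the higher ones, and Fn1 (-0.56 ± 0.08) was the lower one. Neutrophil markers summed to 57.4 to 62.9 CPM in duodenum isotype and 98.1 to 117 with AC H6. None of these markers was at 0 in a group, and their part in the adaptor changes was not tested.

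Of 11 NK transcription factors 3 rose in duodenum, beside 18.5% of all genes: Runx3 (0.88 ± 0.12), a factor of cytotoxic lymphocytes that went from 3.22 ± 0.27 to 5.84 ± 0.02 CPM, Tbx21 (0.88 ± 0.21), which encodes T-bet, and Ets1 (0.38 ± 0.06), a factor of lymphocyte development. In spleen 0 of 11 were called by edgeR, with 3 at an unadjusted p under 0.05, 2 called by DESeq2 and 0 by limma-voom. Tox, a factor of lymphoid development, had the smallest p in spleen (log2 -0.52 ± 0.13, edgeR adjusted p = 0.0691). The interaction called 5 of 11 higher, beside 10.9% of all genes, led by Runx3 (0.95 ± 0.14).

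Cytokine receptors set NK cell growth and activation. Il18r1, a chain of the interleukin 18 receptor, was 25.5, 26.2 and 32.5 CPM in spleen isotype and 14.3, 17.0 and 15.1 with AC H6, and in duodenum 4.12, 5.11 and 4.01 against 7.38, 8.93 and 6.57. It fell in spleen by 0.86 ± 0.11 on the log2 scale (edgeR adjusted p = 0.0164) and rose in duodenum by 0.80 ± 0.15 (edgeR adjusted p = 0.00511), and the difference of the changes was 1.63 ± 0.20 (edgeR adjusted p = 2.09e-04). It was the 1 gene called of 17 in spleen, beside 1.92% of all genes called lower there. In duodenum 5 of 15 rose, beside 18.5% of all genes, among them Il2rg (1.29 ± 0.09), the common gamma chain, and Jak3 (0.42 ± 0.09), its kinase, and Il15, a growth factor of NK cells, fell by 0.49 ± 0.08.

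Of 16 genes of granule maturation, release and granzyme inhibition, 8 rose in duodenum, beside 18.5% of all genes. Stx11, a syntaxin needed for granule fusion, was 1.27, 1.15 and 1.14 CPM with isotype and 7.65, 7.78 and 8.93 with AC H6 (log2 2.80 ± 0.14, edgeR adjusted p = 7.05e-06). The serpins Serpinb9 (0.68 ± 0.09), an inhibitor of granzyme B, Serpinb9b (1.29 ± 0.21) and Serpinb6b (0.66 ± 0.12) rose as well. Gzma and Gzmb were not called there, and which cells carried these rises was not tested. In spleen Stx11 was the 1 gene called of 16 by edgeR (4 by DESeq2), beside 2.06% of all genes called higher by edgeR. It went from 21.3 ± 1.74 to 28.0 ± 1.86 CPM (0.40 ± 0.08). Of the other granzymes 1 of 8, Gzmm, passed the filters, and it was not called in either tissue (log2 0.30 ± 0.27 in spleen and 0.64 ± 0.37 in duodenum).

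Effector cytokines and death ligands showed 3 rises of 8 tested in duodenum, beside 18.5% of all genes: Tnfsf10 (0.71 ± 0.08), which encodes TRAIL, Ccl5 (0.24 ± 0.07), a chemokine, and Tnf (1.00 ± 0.30), tumour necrosis factor. In spleen 0 of 8 were called by edgeR, with 4 at an unadjusted p under 0.05, and 0 by DESeq2 and 0 by limma-voom. Ccl4, a chemokine, had the smallest p in spleen, at 0.808 ± 0.145 CPM with isotype and 1.40 ± 0.13 with AC H6 (log2 0.76 ± 0.19, edgeR adjusted p = 0.0703). The difference of the changes was called lower for Ccl4 (-1.60 ± 0.34) and Ccl3 (-1.16 ± 0.31), a related chemokine, as for Gzmb.

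Of 11 trafficking receptors tested in duodenum 10 rose, beside 18.5% of all genes. Ccr2 was 1.68, 1.95 and 1.65 CPM with isotype and 11.8, 10.8 and 13.1 with AC H6 (log2 2.77 ± 0.13, edgeR adjusted p = 5.36e-06). This chemokine receptor is also a monocyte marker. Cx3cr1, the fractalkine receptor and likewise a monocyte marker, rose by 0.92 ± 0.10. The integrin genes Itgal and Itga2, the second encoding CD49b, a marker used for NK cells, rose by 0.69 ± 0.08 and 0.63 ± 0.10. Under isotype Itga2 was higher in duodenum than in spleen (log2 0.98 ± 0.12), while Ncr1 (-5.85 ± 0.18) and Eomes (-7.74 ± 0.29) were lower. The cells in which Itga2 rose were not tested. In spleen Itgam, the integrin alpha M of myeloid and mature NK cells, rose by 0.85 ± 0.07. S1pr1, the receptor for exit from lymphoid tissue, fell there by 0.27 ± 0.06. These were 1 higher and 1 lower out of 12, beside 2.06% and 1.92% of all genes.

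Of 16 ligands of the NK receptors tested in duodenum 6 rose and 1 fell, beside 18.5% and 16.1% of all genes. The MHC class I genes H2-D1 (0.45 ± 0.05) and H2-K1 (0.33 ± 0.05), Cd48 (0.70 ± 0.11), the ligand of the receptor 2B4, and Clec2d (0.43 ± 0.07), a ligand of NKR-P1 receptors, had the smallest p. MHC class I genes share reads with near copies. In spleen 1 of 18 fell, beside 1.92% of all genes: Clec2i (-0.49 ± 0.08), another ligand of NKR-P1 receptors.

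The genes whose levels were most like those of Klrd1 over the 12 libraries, by Pearson correlation of log2 CPM among 16537 genes, were Inpp5f (r = 0.999), Pde7a (0.998), Pqbp1 (0.998), Ctps2 (0.998) and Carns1 (0.997). For Gzmb they were Met (0.997), Sgms2 (0.996), Ralb (0.996), Ermp1 (0.995) and 1810041L15Rik (0.995). The libraries of a tissue share a level, and the tissue difference sets most of these values. With each tissue's mean subtracted, the genes most like Klrd1 were Sectm1a (0.960), Trib2 (0.955), Inpp5f (0.945), Ctps2 (0.936) and Astn1 (0.933), and among the members Klrk1 came closest (0.745) while Gzmb lay at -0.70. Those most like Gzmb were then Slfn4 (0.953), Il1r2 (0.946), Sgms2 (0.944), Itgam (0.932) and Met (0.928). Among the members Nkg7 (0.508) and Gzma (0.496) came closest to Gzmb.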

How the data were processed

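RNA was extracted from spleen and duodenum with Trizol and columns, and total RNA went into an unstranded TruSeq kit, per the labels' protocols. The deposited tables hold whole-number counts per gene, 1 table a library. The column's name refers to reads with several matches, and how these were counted is not stated. The submitters' processing notes name STAR 2.3, Trimmomatic, bcl2fastq 2.19, edgeR and the build mm10. Which program counted the reads, and on which annotation, is not stated there. In all, 2989 of 23329 rows were at 0 in every library.

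From these counts, edgeR 4.0.16 (R 4.3.3) gave TMM-scaled CPM and quasi-likelihood F-tests (glmQLFit, glmQLFTest) after filterByExpr, with Benjamini-Hochberg adjustment over all genes tested. Spleen, duodenum and the tissue comparison were fitted on their own 6 libraries, and the interaction on 12. Standard errors are the log2 change over the square root of F or, where the tool raised p to its Poisson bound, over the matching normal quantile. Positions and exon lengths are those of GENCODE M21 (GRCm38), promoter sequences those of RefSeq, cut to 250 bases. Groups came from the labels. The members, lists, ratios and tests were chosen with earlier results of these data known. All members are named. From each other list come up to 4 called genes of smallest p, or the gene of smallest p, and up to 3 from cell type lists. Unmatched list genes (Vamp7, Clec2f, H60a, Zfp683, Ly6g, Mzb1 and Ahsp) were not analysed here.

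Alternatives were DESeq2's size factors, DESeq2 1.42.0, limma-voom (limma 3.58.1), no filter and a stricter one (at least 10 counts in all libraries of 1 group, with mean log2 CPM not under 1), the replicate number as a block, 1 fit of 12 libraries, fits that left out amylase 2, haemoglobin, Lars2 and Rn45s genes, scores of T cell, red cell and acinar genes as covariates, each library left out and, chosen after seeing the data, transcript in place of exon lengths. Libraries of a group differed by a chi-square of 24.6 or more per degree of freedom, so none repeated another. Each test was also run on simulated counts, with changes put only in genes above a minimum mean count and with a single dispersion for all genes. That setting does not cover members with few counts, such as Prf1, Ncr1, Klrc1 and Eomes in duodenum.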

Additional observations from a re-analysis of the deposited data

Results flagged for a closer look

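The AC H6 change differed between the tissues, by the test of the interaction, for 4 of the 10 members. Of these 3 were higher and 1 lower, beside 10.9% and 9.13% of all genes tested. The duodenum change exceeded the spleen change by 0.81 on the log2 scale for Klrd1 (edgeR adjusted p = 0.00151), by 0.79 for Klrk1 (0.033) and by 0.93 for Prf1 (0.0341). It was below the spleen change for Gzmb, at -0.50 (0.015). The Klrk1 and Prf1 calls were lost without several single libraries and by limma-voom, and the Prf1 call also by DESeq2. Prf1 rests on 25 and 68 counts in duodenum. Ncr1 had every AC H6 library below every isotype library in spleen and above in duodenum. Its difference of 1.12 missed the threshold in the interaction test (edgeR adjusted p = 0.0575), and it rests on 13 and 33 counts in duodenum.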

How the results depend on the processing

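No call of the tissue comparison changed under the alternatives run, which gave 8 members lower and 2 higher in each. In spleen, members called higher fell from 1 to 0 with the replicate block, the T cell score and the erythroid score. Members called lower were 2 by DESeq2 (Klrk1 with Klrd1) and 0 with the replicate block and the T cell score. Leaving out each library gave 0 to 1 in both directions. In duodenum, members called higher fell from 1 to 0 with the stricter filter, which removed Prf1, by DESeq2 and with the T cell score, and leaving out each library gave 0 to 1. In the interaction, members called higher went from 3 to 1 by limma-voom and to 1 to 3 with a library left out. With the T cell score, which differs between the groups of each tissue, edgeR called 0 genes of all in spleen and 2 in duodenum, and the log2 changes in duodenum turned to -0.87 for Klrd1, -1.12 for Klrk1, -0.022 for Prf1 and -0.064 for Gzma. With a library left out, the log2 change of Eomes in spleen ran from -0.12 to 0.0032 (above 0 without AC H6 3), that of Klrb1c in duodenum from -0.010 to 0.57 (below 0 without isotype 2), and that of Gzma in the interaction from -0.090 to 0.031 (above 0 without spleen isotype 2 or spleen AC H6 2). Genes called in spleen without 1 library ran from 12 higher and 2 lower (without isotype 1) to 575 and 557 (without AC H6 2), against 315 and 293. The labels do not say that replicate numbers pair libraries, and the deviations of same-numbered libraries correlated at 0.17, -0.04 and -0.02 in spleen and 0.35, 0.19 and -0.17 in duodenum. The replicate block left 1 higher and 0 lower of all genes in spleen, and in duodenum and the interaction the counts of called members did not change. The cause of these changes was not tested. Depth limits Ncr1, Klrc1 and Eomes in duodenum, at 13, 6 and 4 counts over the isotype libraries.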
